A study of Mus musculus with 8 samples.

Results

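The 10 genes described here, Clec4f, Adgre1, Marco, Cd163, Timd4, Vsig4, Cd5l, Msr1, Cd68 and Csf1r, are used as markers of Kupffer cells and other macrophages, and were taken by name from the 34836 gene names on the array. They are measured by 15 probes of the 55681 probes of this 1-colour Agilent mouse array, where Adgre1 stands under its older symbol Emr1. Adgre1, Msr1 and Cd68 have 2 probes each, Csf1r has 3 and the other 6 genes have 1. Each of the 15 probes exceeded background clearly on every one of the 8 arrays, and all were among the 27639 probes tested.

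The arrays compare liver of 4 NZO mice (strain NZO/HiBomDife, a polygenic model of obesity and diabetes) with liver of 4 B6 mice (C57BL/6, a lean and diabetes-resistant strain), 1 array per mouse. All 8 animals were males of 6 weeks that received a diet with 45% fat, and no group on another diet or of another age was analysed here, so that a strain difference and a strain-dependent response to the diet cannot be told apart. The labels do not say that animals were pooled. The arrays are named by strain and mouse number, NZO 003, 007, 009 and 011 and B6 009, 010, 011 and 015. Levels are log2 processed signals minus the 75th percentile of the array, so that a level of 0 is the 75th percentile, and differences are NZO minus B6 on this log2 scale. The 5 hepatocyte markers Alb, Ttr, Apoa1, Cps1 and Tat were well above background on all 8 arrays.

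Kupffer cells are the resident macrophages of the liver and lie in the sinusoids, where they clear bacteria, lipoproteins and aged red cells from the blood. Most arise before birth and renew themselves locally, and they depend on signals through the receptor Csf1r. When resident cells are lost, circulating monocytes can enter the liver and take up part of the Kupffer cell programme, with Timd4 as a gene that such newcomers acquire late. Clec4f is restricted to Kupffer cells in mice, Vsig4, Marco, Cd5l and Timd4 mark resident Kupffer cells, and Adgre1, Cd68, Msr1, Cd163 and Csf1r are shared by many macrophages.

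The probe sequences of 3 members are shown because the results turn on what these probes read, the genes with the clearest macrophage restriction (Clec4f, Adgre1) and the gene that went the other way (Msr1). Coordinates are those of the deposited files on mm9, an assembly of C57BL/6J. The NZO sequence under the probes was not analysed here.
Clec4f, probe A_51_P271865, chr6:83595281-83595339, minus strand: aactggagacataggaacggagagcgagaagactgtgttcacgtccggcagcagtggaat
Adgre1, probe A_55_P2018934, chr17:57620350-57620409, plus strand: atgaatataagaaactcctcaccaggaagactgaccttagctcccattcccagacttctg
Msr1, probe A_52_P127130, chr8:40709296-40709355, minus strand: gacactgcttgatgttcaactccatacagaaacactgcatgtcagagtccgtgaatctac

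The promoters of 3 members that were lower in NZO liver follow, as examples of the regulatory sequence of genes that moved in the same direction. They are RefSeq sequences of the GRCm38.p6 build, from 250 bases before to 50 bases after the gene start, read on the strand of the gene. Capitals mark GAGGAA or its reverse complement TTCCTC, the purine-rich core bound by the macrophage regulator PU.1 and by other ETS factors. The letters occurred in the promoters of 4 of the 7 members whose promoters were read, 1 time each in Marco and Cd5l and 2 times each in Vsig4 and Cd68. They were not in the windows of Clec4f, Cd163 and Timd4, and the promoters of Adgre1, Msr1 and Csf1r were not read. Of all 32851 promoters in the table, 28.3% held them. A match describes the letters and is no measurement of binding.
Clec4f, chr6:83656067-83656366, minus strand: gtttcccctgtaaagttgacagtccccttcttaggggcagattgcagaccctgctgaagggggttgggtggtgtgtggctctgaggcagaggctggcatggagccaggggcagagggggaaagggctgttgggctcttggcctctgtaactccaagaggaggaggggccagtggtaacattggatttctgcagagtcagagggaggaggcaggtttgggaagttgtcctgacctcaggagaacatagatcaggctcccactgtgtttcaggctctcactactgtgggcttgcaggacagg
Marco, chr1:120504975-120505274, minus strand: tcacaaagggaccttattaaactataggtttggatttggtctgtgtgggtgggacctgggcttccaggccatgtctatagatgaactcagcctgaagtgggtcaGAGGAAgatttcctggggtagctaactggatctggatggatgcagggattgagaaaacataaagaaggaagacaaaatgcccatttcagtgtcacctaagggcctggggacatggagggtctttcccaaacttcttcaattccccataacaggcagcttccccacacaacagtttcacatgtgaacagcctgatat
Cd5l, chr3:87357631-87357930, plus strand: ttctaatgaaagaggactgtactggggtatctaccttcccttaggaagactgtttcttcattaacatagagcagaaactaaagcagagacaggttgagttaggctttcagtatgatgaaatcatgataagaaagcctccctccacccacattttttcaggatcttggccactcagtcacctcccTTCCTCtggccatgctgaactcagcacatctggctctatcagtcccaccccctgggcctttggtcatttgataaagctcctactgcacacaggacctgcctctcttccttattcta

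Of the 15 member probes, 7 were lower in NZO liver, 1 was higher and 7 did not pass the threshold (limma, adjusted p at or below 0.05 after Benjamini-Hochberg adjustment over all 27639 probes, with no limit on the fold). The lower probes belong to 6 of the 10 genes, Clec4f, Marco, Cd5l, Csf1r, Adgre1 and Cd68, and the higher probe belongs to Msr1. Csf1r, Cd68 and Msr1 also have probes that did not pass the threshold, and for Csf1r these include its brightest probe. Among all probes tested, 14.3% were called in either direction, 7.43% as lower and 6.83% as higher in NZO. The median difference was -0.48 over the 15 member probes and 0.02 over all probes tested. As these are measurements of whole liver, fewer macrophages and less of these RNAs per macrophage cannot be told apart. For 9 of the 15 probes the strains did not overlap, 8 of them with all NZO arrays below all B6 arrays. Of all probes tested, 22% showed no overlap. The calls rest on arrays of different slides: with slide as a fixed term, which leaves the comparison to 1 NZO and 2 B6 arrays of 1 slide, 0 of the 15 probes passed the threshold. The 8 called probes kept their direction there, with Clec4f at -1.06. With slide as a random block, 7 member probes were lower and 1 was higher.

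**Figure D1:**
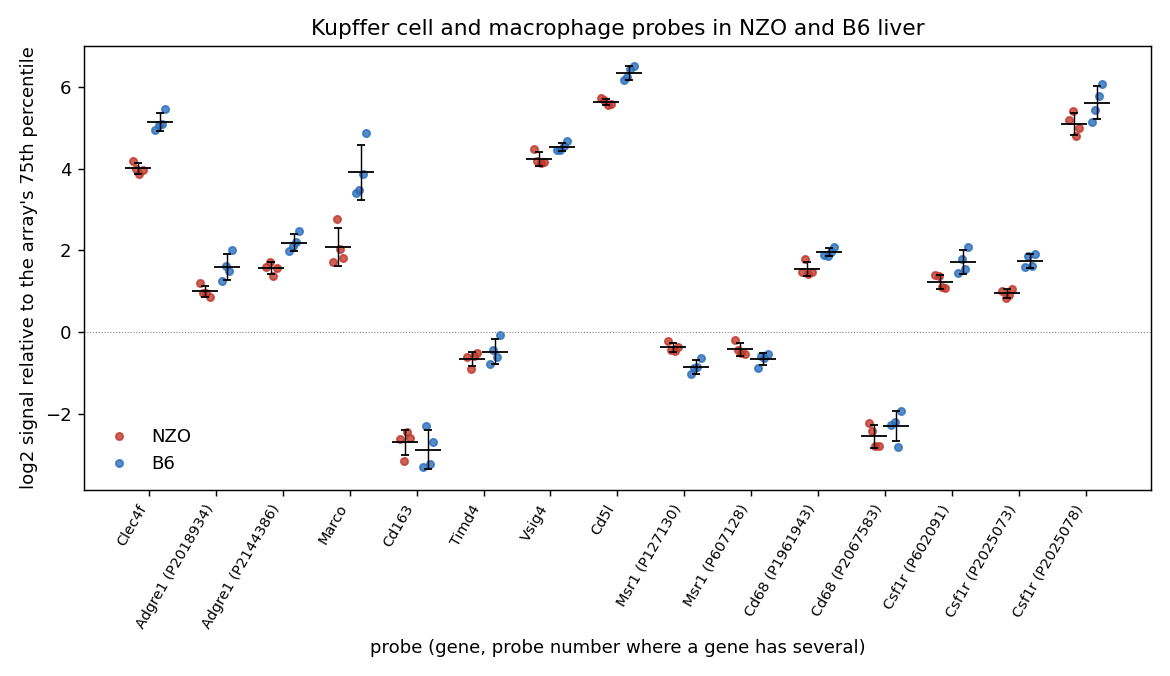
Level of each of the 15 member probes (log2 processed signal minus the 75th percentile of the array) on the 4 NZO and the 4 B6 arrays, with 1 point per array and a line at the strain mean. The strains lie apart for Clec4f, where NZO arrays reach 4.20 and B6 arrays begin at 4.95, and for Marco, and they overlap for Cd163, Timd4 and Vsig4.

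Clec4f encodes a C-type lectin receptor of the Kupffer cell surface that binds glycans and takes part in the clearance of platelets. Its levels were 4.20, 3.99, 3.88 and 3.97 on the arrays of NZO 003, 007, 009 and 011, and 4.95, 5.07, 5.09 and 5.46 on those of B6 009, 010, 011 and 015. Every NZO array was below every B6 array, and B6 015 was the highest of all. The mean was 4.01 ± 0.14 (SD, n = 4) in NZO and 5.14 ± 0.22 in B6, a difference of -1.13 (SE 0.13, limma adjusted p = 0.000853) or a 2.19-fold lower signal in NZO. This difference also passed the thresholds in the methods of the study, a p of at most 0.05 (taken here as unadjusted) and an absolute log2 fold change of at least 0.7, as did 12.2% of all probes.

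Marco encodes a class A scavenger receptor with a collagenous domain that binds bacteria and particles. It had the largest difference between the strain means among the members. NZO arrays gave 1.73, 2.77, 2.04 and 1.82 and B6 arrays gave 3.41, 3.49, 3.88 and 4.89, so that the strains were separate but both were more spread than for Clec4f. The means of 2.09 ± 0.47 and 3.92 ± 0.68 differed by -1.83 (SE 0.36, limma adjusted p = 0.0113), which is 3.55-fold. The size rested on the arrays compared: the difference was -2.33 within the first scan day, -0.87 within the second, where NZO 007 is the only NZO array, and -2.46 within the slide that holds both strains. Without B6 015, the highest array, it was -1.50.

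Cd5l encodes a secreted scavenger-type protein (also called AIM) that macrophages release into the blood and that acts on lipid metabolism and cell survival. Its levels were 5.73, 5.68, 5.56 and 5.59 in NZO and 6.18, 6.24, 6.46 and 6.52 in B6. The NZO arrays lay within a narrow range and all were below the lowest B6 array. The means of 5.64 ± 0.08 and 6.35 ± 0.17 differed by -0.71 (SE 0.11, limma adjusted p = 0.00346), a 1.63-fold lower signal.

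Csf1r encodes the receptor for the growth factors Csf1 and Il34, through which macrophages survive and proliferate. Its probe A_55_P2025073 gave 1.00, 0.82, 0.91 and 1.06 in NZO and 1.58, 1.87, 1.62 and 1.91 in B6, with a difference of -0.80 (SE 0.11, limma adjusted p = 0.00232). The strains were well separated at this probe. The other two probes also gave lower means in NZO but did not pass the threshold. A_52_P602091 differed by -0.48 (95% interval -0.86 to -0.10, adjusted p = 0.0966) with no overlap between the strains, and A_55_P2025078 by -0.51 (95% interval -1.02 to -0.01, adjusted p = 0.175) with overlap. Within the second scan day the differences of the 3 probes, in this order, were -0.78, -0.11 and -0.05, and within the first -0.90, -0.76 and -0.76. The 3 probes lie at separate genomic positions, chr18:61278661-61278720, chr18:61289398-61289758 and chr18:61290725-61290784 on mm9. The brightest was A_55_P2025078, with means of 5.11 in NZO and 5.62 in B6, against 0.95 and 1.74 at the called probe A_55_P2025073.

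Adgre1 encodes F4/80, the adhesion receptor by which mouse macrophages are most often stained. Both of its probes were lower in NZO liver. A_55_P2144386 gave 1.60, 1.73, 1.38 and 1.57 in NZO and 1.98, 2.11, 2.21 and 2.47 in B6, a difference of -0.62 (SE 0.13, limma adjusted p = 0.0158). A_55_P2018934 gave 1.19, 0.96, 0.96 and 0.87 against 1.25, 1.62, 1.50 and 2.01, a difference of -0.60 (SE 0.17, adjusted p = 0.0489). Within the second scan day the differences were -0.37 and -0.41, against -0.77 and -0.81 within the first. At neither probe did the strains overlap, but at the second probe NZO 003 lay just below B6 009. The call at the second probe was lost when any 1 array other than B6 009 was left out, with differences between -0.66 and -0.46 and adjusted p between 0.0582 and 0.115.

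Cd68 encodes macrosialin, a glycoprotein of late endosomes and lysosomes in phagocytes. Its probe A_55_P1961943 gave 1.47, 1.79, 1.42 and 1.47 in NZO and 1.90, 1.87, 1.95 and 2.09 in B6. The strains did not overlap, and NZO 007 lay close to the B6 arrays. The difference was -0.42 (SE 0.11, limma adjusted p = 0.0448), a 1.34-fold lower signal. This call was lost when any 1 array other than NZO 007 was left out, with adjusted p between 0.0784 and 0.110, and also with scan day as a fixed term (-0.39, adjusted p = 0.0697) and after quantile normalization (adjusted p = 0.0637). Within the first scan day the difference was -0.53 and within the second -0.14. The other probe, A_55_P2067583, differed by -0.25 (95% interval -0.74 to 0.23, adjusted p = 0.488), with overlap between the strains.

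Msr1 encodes the class A scavenger receptor SR-A, which takes up modified lipoproteins and bacteria, and it was the member with a higher probe. A_52_P127130 gave -0.21, -0.43, -0.47 and -0.37 in NZO and -1.03, -0.88, -0.86 and -0.64 in B6, and all NZO arrays lay above all B6 arrays. The difference was 0.48 (SE 0.11, limma adjusted p = 0.0260), a 1.40-fold higher signal. The second probe, A_52_P607128, differed by 0.23 (95% interval -0.05 to 0.52, adjusted p = 0.258), with overlap. The files assign the first probe to the RefSeq transcripts NM_031195 and NM_001113326 and the second to NM_031195 alone. The call at the first probe was lost without NZO 003, NZO 011, B6 009, B6 010 or B6 011, with adjusted p between 0.0619 and 0.0775, and the difference was 0.29 after normexp background correction and 0.08 in the deposited table as given.

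The remaining 3 members, Vsig4, Timd4 and Cd163, did not pass the threshold. Vsig4, the complement receptor by which Kupffer cells catch opsonised bacteria in the blood flow, gave 4.49, 4.19, 4.14 and 4.16 in NZO and 4.46, 4.46, 4.57 and 4.68 in B6. Only NZO 003 reached the B6 range. The difference was -0.30 (95% interval -0.56 to -0.04, limma adjusted p = 0.130). It passed the threshold in 4 of 20 alternative settings, with -0.34 after normexp background correction (adjusted p = 0.0215) and -0.37 after quantile normalization (adjusted p = 0.0254). With slide as a fixed term, which leaves the comparison to the arrays of 1 slide, the difference was smallest, at -0.08.

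Timd4 encodes Tim-4, a receptor for phosphatidylserine on dying cells. Its levels were -0.62, -0.90, -0.58 and -0.53 in NZO and -0.79, -0.45, -0.61 and -0.07 in B6, so that B6 015 and B6 010 lay above all NZO arrays and the other two B6 arrays lay among them. The difference was -0.18 (95% interval -0.56 to 0.21, limma adjusted p = 0.544). Cd163 encodes the receptor for haemoglobin bound to haptoglobin. It gave -2.62, -3.15, -2.45 and -2.60 in NZO and -3.32, -2.29, -3.24 and -2.70 in B6, with raw processed signals between 14 and 28.7 on the 8 arrays. The difference was 0.18 (95% interval -0.41 to 0.77, adjusted p = 0.689), and the intervals of both genes leave room for a change in either direction.

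**Figure D2:**
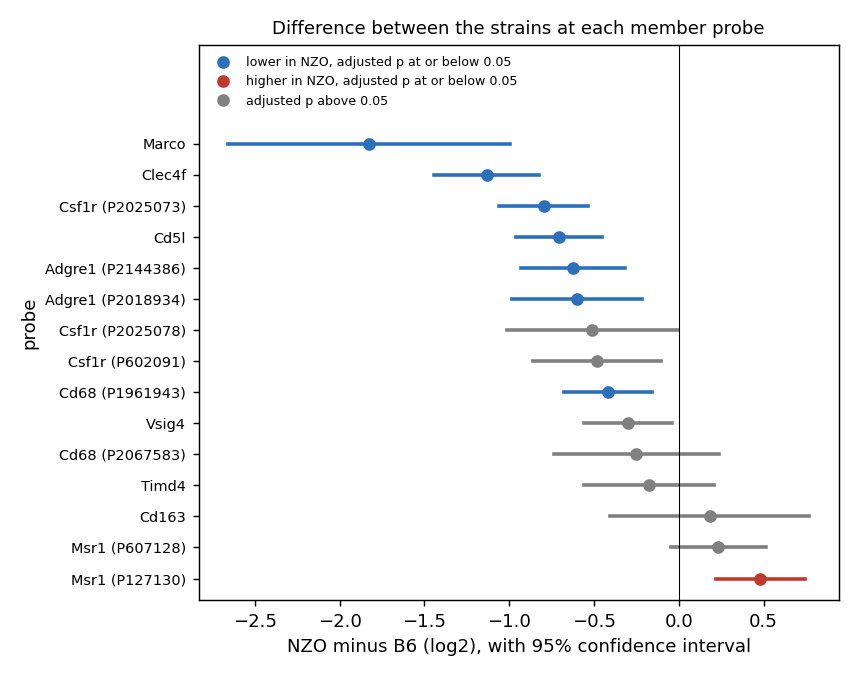
Difference between NZO and B6 (log2) for each of the 15 member probes, with the 95% interval from the limma fit across all probes and colour for the call. The intervals of Marco (-2.66 to -0.99) and Clec4f (-1.44 to -0.82) lie farthest below 0, and the first probe of Msr1 (0.22 to 0.74) is the one called as higher.

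Most member probes shared the same highest and the same lowest array among the B6 animals. Within B6, the array of B6 015 was the highest of the 4 for 14 of the 15 probes and that of B6 009 was the lowest for 13, whereas over all probes tested these arrays took the same places in 24.8% and 24.2%. The median deviation from the strain mean over the 15 probes was 0.28 for B6 015 and -0.21 for B6 009, against -0.03 for B6 010 and -0.04 for B6 011. Within NZO the arrays were less ordered. NZO 003 was highest for 8 probes and NZO 009 lowest for 8, against 35.6% and 23.8% of all probes, with median deviations of 0.09 and -0.10. B6 009 was scanned on the second day and B6 015 on the first, and whether scan day or slide plays a part in this order was not tested.

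**Figure D3:**
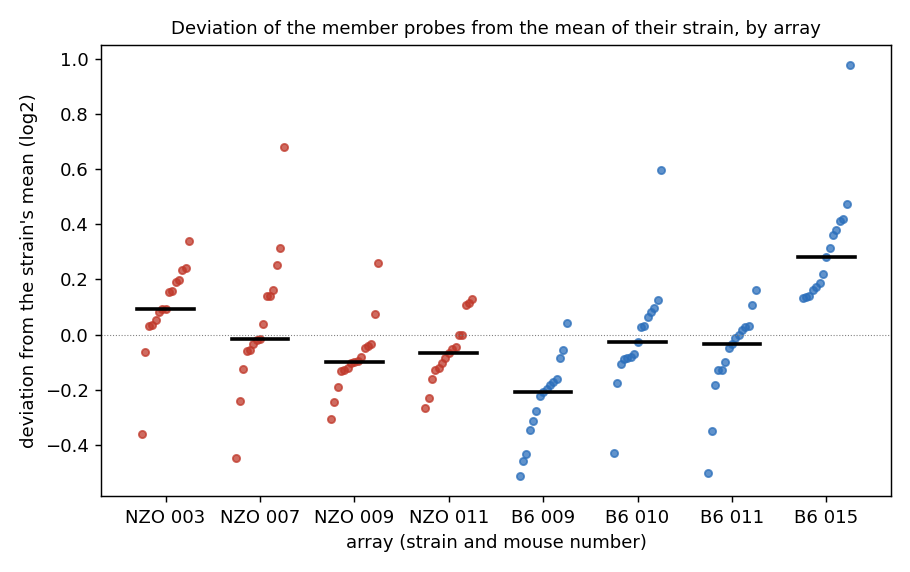
Deviation of each member probe from the mean of its strain (log2), with 1 point per probe and 1 column per array. The points of B6 015 lie almost all above 0 and those of B6 009 almost all below, and the NZO arrays are centred between -0.10 and 0.09.

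Around the members, 84 further macrophage genes in 5 lists were read, of which 83 were on the array (Ly6c2 was not found by name) and 73 passed the filter, each by its probe with the highest mean. Of these 73 genes, 24 were lower and 3 higher in NZO liver, 46 did not pass the threshold, and the median difference was -0.28. The lower genes include Maf, whose other probe was higher, and genes tested only because B6 arrays measured them. Over probes above background on all 8 arrays, 22 genes were lower and 3 higher. The shares of all probes called as lower and higher were 7.43% and 6.83%.

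The Kupffer cell programme held 22 genes, of which 9 were lower, 1 was higher and 12 did not pass the threshold, with a median difference of -0.38. Cd207 (langerin, a C-type lectin) was not well above background on any NZO array and was above it on all 4 B6 arrays, which makes it at least 6.99-fold lower in NZO (limma adjusted p = 0.000161). It was tested only because B6 arrays measured it, so that its place in the count and the median supports nothing about the list. The p rests on NZO values at background, so that only the bound describes the difference. The measured means were -5.63 in NZO and -1.37 in B6, and the bound sets the B6 mean against, for each NZO array, the higher of the lowest signal well above background and the signal of the probe. Pilra, a receptor of myeloid cells with an inhibitory motif, differed by -1.95 (adjusted p = 0.000224), and 2 of its other 3 probes were also lower, by -1.99 and -1.98. Pcolce2, an enhancer of procollagen processing, differed by -1.18 (adjusted p = 0.000806). Hmox1, the enzyme that breaks down haem, differed by -0.93 (adjusted p = 0.00465), although its other probe gave -0.24 (adjusted p = 0.607). The remaining lower genes were Fcna, Cfp, C1qa, C1qc and Lgmn, with differences from -0.79 to -0.55. The 12 genes that did not pass lay on both sides of 0, from Id1 (-1.73, adjusted p = 0.0515), C1qb (-0.40, adjusted p = 0.149), Sdc3 (-0.36) and Ctss (-0.33) over Spic (-0.05), Id3 (-0.01), Ctsb (0.06), Nr1h3 (0.10) and Clec1b (0.13) to Folr2 (0.21), Slc40a1 (0.31, adjusted p = 0.154) and Il18bp (0.32, adjusted p = 0.180). Normexp background correction, whose offset of 50 shrinks the differences of dim probes, gave -0.81 for Cd207 and -0.56 for Pcolce2. Fabp7, a fatty acid binding protein that Kupffer cells express, was higher by 1.30 (adjusted p = 0.000577).

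The axis around Csf1r held 10 genes, of which 9 passed the filter and 4 were lower at the probe read, with a median difference of -0.51, and 1 of these 4, Maf, has a second probe in the opposite direction. The ligand Csf1 had levels of -0.34, -0.23, -0.11 and -0.17 in NZO and 0.25, 0.30, 0.57 and 0.54 in B6, a difference of -0.63 (limma adjusted p = 0.00693). Its other two probes differed by -0.23 and -0.39 and did not pass the threshold (adjusted p = 0.492 and 0.0741). The second ligand, Il34, differed by -0.07 (95% interval -0.44 to 0.30, adjusted p = 0.827). The transcription factor Irf8 was lower by -0.75 (adjusted p = 0.00760). The signalling adaptor Tyrobp was lower by -0.64 (adjusted p = 0.0279), a call that held in 3 of the 8 fits with 1 array left out. For the transcription factor Maf the probes opposed each other, with -0.51 (adjusted p = 0.0240) at the brighter probe and 1.78 (adjusted p = 0.000191) at the other, so that no direction is given for the gene. Spi1, which encodes PU.1, differed by 0.67 (95% interval -0.05 to 1.38, adjusted p = 0.208). Its probe was dim, with means of -2.90 in NZO and -3.57 in B6. It was above background on 3 of 4 B6 arrays and was tested only because all NZO arrays measured it.

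Of 18 scavenger, phagocytic and Fc receptor genes, 17 passed the filter, 3 were lower and 14 did not pass the threshold, with a median difference of -0.12. The lower genes were Scara3, a class A scavenger receptor family member (difference -1.39, adjusted p = 0.00457), Scarb1, the receptor for high-density lipoprotein that hepatocytes also express (-1.36, adjusted p = 0.00197), and Axl, a receptor for the uptake of dying cells (-0.57, adjusted p = 0.0183). The 14 genes that did not pass lay on both sides of 0, from Fcgr1 (-0.65, adjusted p = 0.0652) over Mrc1 (-0.31), Mertk (-0.29), Cd36 (-0.27) and Itgb2 (-0.12) to Fcgr4 (0.16), Fcgr3 (0.31, adjusted p = 0.0909, no overlap) and Fcgr2b (0.34). Scara3 was above background on 3 of 4 NZO arrays and was tested only because all B6 arrays measured it. Its place in the count and the median therefore supports nothing about the list, and after normexp correction it differed by -0.32.

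Of 18 genes of monocytes and recruited macrophages, 15 passed the filter, 5 were lower and 2 higher, with a median difference of -0.21. The median includes Chil3 and Ccr2, which were tested only because B6 arrays measured them, so that it supports nothing about the list. Both directions contain genes with strong differences. Trem2, a lipid-sensing receptor of recruited macrophages, gave -1.60, -1.30, -1.70 and -1.98 in NZO and -0.06, -0.28, 0.20 and -0.30 in B6, a difference of -1.54 (limma adjusted p = 0.000654). Ms4a7, a tetraspan gene of macrophages, differed by -1.26 (adjusted p = 0.00217), and Chil3, a chitinase-like protein of activated macrophages and neutrophils, by -2.38 (adjusted p = 0.0214). Chil3 was above background on 3 of 4 NZO arrays and was tested only because all B6 arrays measured it, so that its place in the count supports nothing about the list. Spp1, which encodes osteopontin, differed by -0.89 (adjusted p = 0.0313). After normexp correction Trem2 differed by -0.80, Ms4a7 by -0.69 and Chil3 by -0.58.

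The 2 higher genes were Cx3cr1 and Ly6c1. Cx3cr1, the fractalkine receptor of monocytes, gave 0.45, 0.46, -0.35 and 0.25 in NZO and -1.04, -1.82, -1.03 and -1.10 in B6, a difference of 1.45 (limma adjusted p = 0.00509), and its other two probes were higher by 1.27 and 1.31. After normexp correction the difference was 0.845. Ly6c1 gave 5.67, 6.55, 6.22 and 5.69 in NZO and between 2.93 and 3.68 in B6, a difference of 2.82 (adjusted p = 0.000160). Ly6c1 is a near-identical copy of Ly6c2, the monocyte antigen, and is itself abundant on endothelial cells, so that the source of this signal is uncertain. Ccr2, the receptor that recruits monocytes, was above background on 2 of 4 NZO arrays and was tested only because all B6 arrays measured it. Its difference was -0.21 (95% interval -0.66 to 0.24, adjusted p = 0.540).

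Of 16 activation and cytokine genes, 10 passed the filter, 3 were lower and 7 did not pass the threshold, with a median difference of -0.37. The median includes Il1rn, which was above background on 2 of 4 NZO arrays and was tested only because all B6 arrays measured it. The co-stimulatory molecule Cd86 gave -1.13, -1.14, -1.13 and -1.09 in NZO and -0.43, -0.37, -0.20 and 0.00 in B6 (difference -0.87, adjusted p = 0.00134). The monocyte chemoattractant Ccl2 differed by -1.16 (adjusted p = 0.0338) and the inflammatory cytokine Il1b by -1.22 (adjusted p = 0.0416), calls that held in 4 and 3 of the 8 fits with 1 array left out. After normexp correction the differences of Cd86, Ccl2 and Il1b were -0.53, -0.51 and -0.32. Tnf, Il6, Il10, Ccl3, Retnla and Nlrp3 were too dim to be tested.

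**Figure D4:**
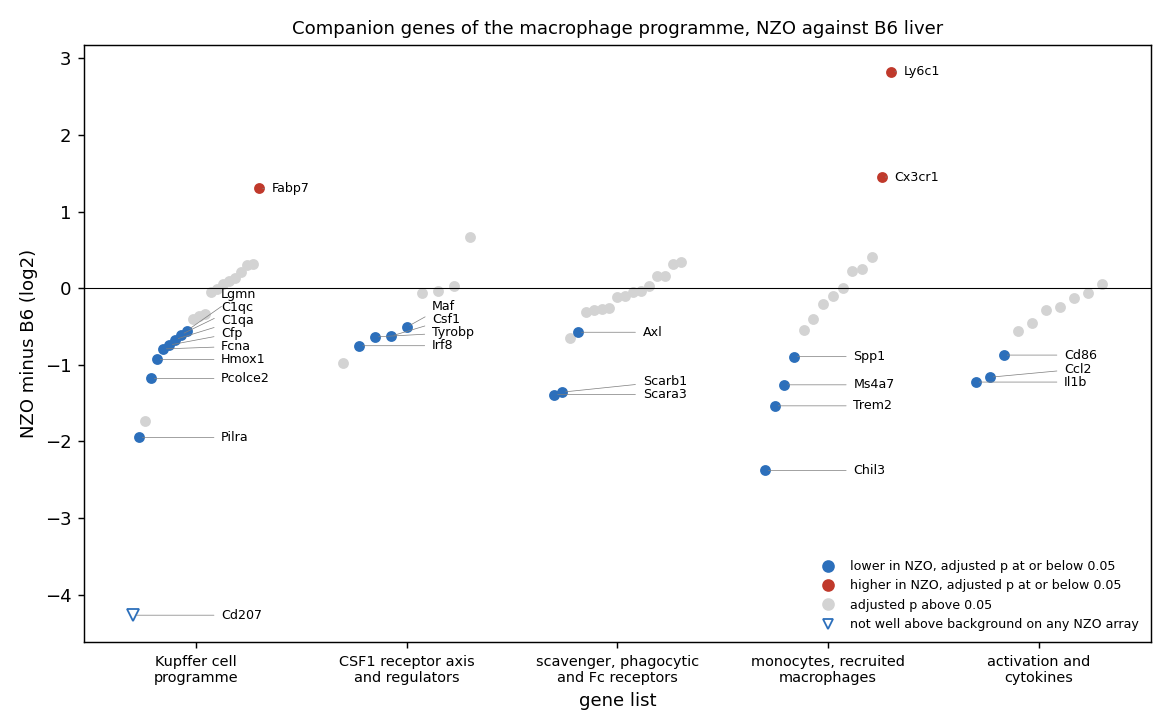
Difference between NZO and B6 (log2) for 72 of the 73 companion genes that passed the filter, by list, with the genes past the adjusted threshold named. Genes called as lower include Maf, whose other probe was higher, and Cd207, Scara3 and Chil3, which were tested only because B6 arrays measured them. Among all probes tested, 7.43% were called as lower and 6.83% as higher. The open triangle marks Cd207, whose plotted value is not a bound because NZO arrays were at background.

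Markers of other liver cells were read beside these results. Summed over the 10 members (1 probe each, linear signal relative to the 75th percentile, with Cd5l as the brightest), the level was 132 ± 12.4 (SD, n = 4) in NZO and 218 ± 39.9 in B6. The 5 hepatocyte markers did not pass the threshold, with Alb at a difference of 0.27 (limma adjusted p = 0.203). The sum over hepatocyte markers was 3859 ± 52.6 in NZO and 3403 ± 362 in B6, with Alb as the brightest. The leukocyte gene Ptprc, which encodes CD45, gave -1.09, -1.14, -0.92 and -0.78 in NZO and -0.85, -0.18, -0.59 and -0.25 in B6, a difference of -0.51 (95% interval -0.90 to -0.13, adjusted p = 0.0840), and the other two leukocyte genes, Coro1a and Laptm5, did not pass the threshold either.

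Of all probes tested, 7.43% were called as lower and 6.83% as higher. Among markers of other immune cells, 2 of 5 dendritic cell genes tested were past the threshold as lower, Itgax by -2.04 (limma adjusted p = 0.0358, above background on 2 of 4 NZO arrays) and Cd209a at least 1.82-fold (adjusted p = 0.000688, on 0 of 4 NZO arrays). Both were tested only because B6 arrays measured them, so that the count supports nothing about the list. The dendritic cell marker Xcr1 was not well above background on any array. Both genes are also expressed by macrophages or monocyte-derived cells. Siglech, the brightest of the list, differed by -0.22 (adjusted p = 0.534), Clec9a by -0.52 (adjusted p = 0.319) and Flt3 by -0.91 (adjusted p = 0.218). Flt3 was above background on 3 of 4 NZO arrays and was tested only because all B6 arrays measured it. After normexp correction Itgax differed by -0.37 and Cd209a by -0.10. For lymphocytes and neutrophils, the 4 T and NK cell markers tested did not pass the threshold and had a median difference of -0.39. They were Cd3e at 0.33 (adjusted p = 0.575), Nkg7 at -0.17 (adjusted p = 0.563), Cd2 at -0.61 (adjusted p = 0.0524) and Cd3g at -0.84 (adjusted p = 0.0849). Cd3g was above background on 2 of 4 NZO arrays and was tested only because all B6 arrays measured it. The median of this list therefore supports nothing about it. Of 4 B cell markers, Cd79b was lower by -0.73 (adjusted p = 0.0197, with -0.35 after normexp correction), and Cd79a (-0.10, adjusted p = 0.742), Ms4a1 (-0.52, adjusted p = 0.435) and Blnk (0.53, adjusted p = 0.0707) did not pass. Ms4a1 was above background on 3 of 4 NZO arrays and was tested only because all B6 arrays measured it. The 4 neutrophil markers tested did not pass either, with S100a8 at -0.03 (adjusted p = 0.974), S100a9 at -0.20 (adjusted p = 0.827), Retnlg at -0.06 (adjusted p = 0.903), Mpo at 2.17 (adjusted p = 0.127, above background on 2 of 4 B6 arrays) and a median of -0.05. Mpo was tested only because all NZO arrays measured it.

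Among the other non-parenchymal cells, endothelial cells had 1 of 7 markers higher (Stab2, 0.49, adjusted p = 0.00887, with -0.44 and -0.93 at its other two probes) and 1 lower (Lyve1, -0.62, adjusted p = 0.0247). The 5 that did not pass ranged from Oit3 (-0.29) to Kdr (0.32). The shares of all probes called as lower and higher were 7.43% and 6.83%, which is the measure for the counts in this paragraph. The Lyve1 call held in 3 of the 8 fits with 1 array left out, and the Lyve1 difference was -0.30 with slide as a fixed term. Stellate cells had 1 of 6 lower (Pdgfrb, -0.99, adjusted p = 0.000360), with Lrat at -0.36 (adjusted p = 0.214), and of the biliary markers 1 of 3 was lower (Sox9, -1.46, adjusted p = 0.00893), with Krt19 at -0.65 (adjusted p = 0.0801). After normexp correction Pdgfrb differed by -0.525 and Sox9 by -0.58. Of 4 red cell genes, 2 were higher in NZO, Alas2 by 0.90 (adjusted p = 0.00230) and Hba-a1, whose copy Hba-a2 is near-identical, by 1.01 (adjusted p = 0.0181). Hbb-b1 (0.81, adjusted p = 0.0699) and Slc4a1 (0.62, adjusted p = 0.321) did not pass, and the sum over the 4 genes was 362 ± 78.1 against 181 ± 25.2. Of 3 adipocyte genes tested, Car3, which liver itself expresses, was higher by 0.47 (adjusted p = 0.0131), Fabp4 (-0.30, adjusted p = 0.245) and Cidec (0.42, adjusted p = 0.243) did not pass, and Adipoq was at background on all arrays. Skeletal muscle genes stood out in single animals, with a summed level of 17.7 in NZO 007 and 5.70 in B6 010 against 0.136 to 1.40 on the other arrays. With both of these arrays left out, 6 member probes were lower, the Msr1 probe did not pass the threshold (adjusted p = 0.0894) and Marco differed by -2.20. The part of these other markers in the strain differences of the members was not tested.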

How the data were processed

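Total RNA of liver was labelled with Cy3 and hybridised to 1-colour Agilent arrays by the authors, 1 array for each of 4 NZO and 4 B6 mice. The authors deposited the scanner output, whose intensity values were made with Agilent Feature Extraction 11.0.1.1 per the file headers (the submitters' processing notes name 9.1), and a table of intensity values identical to the unprocessed medians of the scanner output (all 59305 spots of every array, tolerance 0.01). The processed signal is corrected for background within the array and not scaled between arrays. Its 75th percentile was 118.6 to 141.8 in NZO and 136.6 to 158.9 in B6, 50.4% to 60.1% of spots were well above background, and no spot was saturated. The precision is limited by the number of arrays.

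Spots that are controls or marked as outliers (between 96 and 137 of the latter on an array) were removed, and log2 signals were set relative to the 75th percentile of each array. The probes of a gene were kept separate. The 27639 probes that lay well above background on the 4 arrays of either strain or both were fitted with limma 3.58.1 (lmFit and eBayes, R 4.3.3) after a test on simulated data, with Benjamini-Hochberg adjustment over all of them. The methods of the study name a t-test with Welch correction, which was run as an alternative, refer to earlier studies for the arrays and give no normalization. Whether each mouse was a separate litter or cage is not given, so that p-values measure the spread between these samples.

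The members and the lists were chosen with earlier results of these data known. Named genes were all members, from each list up to 4 higher and 4 lower genes with the largest differences among those past the threshold without overlap between the strains, and the ligands and defining markers fixed by name. Fcna, Cfp, C1qa, C1qc, Lgmn, Spp1 and some genes that did not pass the threshold were named after their values were seen, and 1 named gene of the monocyte list, which is in its counts, is not reported here. Alternatives changed the background correction, normalization, filter, test, slide, scan day, mouse number and the arrays included.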

Additional observations from a re-analysis of the deposited data

Results flagged for a closer look

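Within a strain, 10 of 116 groups of 4 arrays held an array whose gap to the next one exceeded Dixon's 95% critical value for 4 samples, where chance gives about 1 in 20. Among the members, Vsig4 was high in NZO 003 at a level of 4.49, against 4.14 to 4.19 in the other NZO mice, and Cd68 (A_55_P1961943) was high in NZO 007 at 1.79, against 1.42 to 1.47. At these probes they were the NZO arrays nearest to the B6 arrays.

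B6 015, which was the highest B6 array at 14 of 15 member probes, stood apart as high for Ms4a7 at 0.28, for Axl at 1.71 and for the dendritic cell gene Itgax at -1.18. B6 010 was low for Cx3cr1 at -1.82. NZO 011 was low for Pcolce2 at -1.91, for Il1b at -3.31 and for Scara3 at -3.79, where its signal was not well above background. The muscle gene Ckm was high in NZO 007 at 0.10 and between -6.34 and -6.02 in the other NZO mice.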

How the results depend on the processing

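Of the 15 member probes, the 8 called ones kept their direction under the 20 alternatives with a test, and Clec4f, Cd5l and Csf1r (A_55_P2025073) each passed the threshold in 18 of these. With 1 array left out, 5 to 6 member probes were lower and 0 to 1 higher, 16 to 25 companion genes lower, and 1493 to 1926 probes lower and 1405 to 1885 higher in all. Among the other named genes, Fcna, Cfp, C1qa, C1qc, Lgmn and Spp1 were not read one by one under the alternatives. The others that were called kept their direction in all settings run but not their size. Normexp correction shrank it most at dim probes (Cd207 to -0.81, Cd209a to -0.10). With 1 array left out, their call held in 2 of 8 fits for Itgax, 3 for Il1b, Tyrobp, Maf and Lyve1, and 4 for Ccl2. It held in 5 for Chil3, 6 for Cd79b and Hba-a1 and 7 for Axl. The deposited table as given, in which the median difference of all probes is -0.15, gave 3355 lower and 989 higher probes and 0 higher member probes, and the deposited table relative to its 75th percentile gave 0 higher member probes. Without a filter on dim probes, 4 member probes were lower and 0 higher, and 15 companion genes were lower. With the methods' t-test after Benjamini-Hochberg adjustment, 4 member probes, 15 companion genes and 1192 probes in all were lower, and Marco had an adjusted p of 0.0594. At the methods' thresholds, 4 member probes were lower (Clec4f, Marco, Cd5l and Csf1r) and 0 higher. With slide as a fixed term, which leaves the strain difference to the 3 arrays of 1 slide, 0 member probes were lower and 0 higher, 2 companion genes were lower and 0 higher, and 984 probes were lower and 504 higher, and Clec4f differed by -1.06 (limma adjusted p = 0.0822). With the mouse number as a replicate block, which rests on numbers 009 and 011, 0 member probes were lower and 0 higher, 1 companion gene was lower and 1 higher, and 134 probes were lower and 72 higher. The residuals of mice that share a number correlated at -0.26 and -0.0041, so that the numbers do not pair the animals. With slide as a random block, 7 member probes were lower and 1 higher, and 24 companion genes were lower and 3 higher. Scan day as a fixed term gave 6 lower and 1 higher member probes, and 22 lower and 3 higher companion genes. Without NZO 007 and B6 010, chosen after seeing the data for their muscle genes, 0 member probes were higher. The causes of these changes were not tested beyond the arrays and probes each setting leaves. Dim probes such as those of Cd163 limit what a difference can show.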
